A study of Mus musculus with 8 samples.

Results

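The genes described here encode the nuclear-encoded subunits of the 5 oxidative phosphorylation complexes, in mouse intestinal epithelial cells with and without a floxed Rictor allele. They were chosen by a rule on names that uses no expression values, although earlier results of these data were known. It covers protein-coding genes whose symbols are Ndufa, Ndufb, Ndufc, Ndufs or Ndufv followed by a digit, or Sdha to Sdhd. It also covers protein-coding genes whose symbols begin with Uqcr, with Cox4 to Cox8, or with Atp5. The rule took 83 of the 54139 genes in the deposited table: 37 of complex I, 4 of complex II, 8 of complex III, 18 of complex IV and 16 of complex V. It leaves out a few true subunits with other symbols, among them Ndufab1 and Cyc1, which are described with the related genes. The cKO group (4 libraries) carried the Villin-Cre transgene with floxed Rictor, and the WT group (4 libraries) carried Villin-Cre without it, so both groups express Cre. The Villin promoter drives Cre in the intestinal epithelium, and Rictor encodes a defining subunit of the kinase complex mTORC2. RNA sequencing of these cells asks how the epithelial transcriptome differs when Rictor is deleted. The labels give neither the age of the mice nor the intestinal segment, and they do not say whether each library is a separate mouse, so the p-values reflect library-to-library spread, which may in part be technical.

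Oxidative phosphorylation takes place in the inner mitochondrial membrane. Complex I oxidises NADH and complex II oxidises succinate, and both pass electrons to ubiquinone. Complex III passes them on to cytochrome c, complex IV uses them to reduce oxygen, and complex V, the ATP synthase, makes ATP from the proton gradient that complexes I, III and IV build. Complex II is encoded by nuclear genes alone, whereas the other complexes also hold subunits made from mitochondrial DNA, so their assembly draws on both genomes. In the intestine, cells of the crypt and enterocytes of the villus are known to differ in their reliance on mitochondrial respiration.

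Many genes of this kind are known to share promoter motifs for NRF1, for ETS factors such as GABPA, for YY1 and for the oestrogen-related receptors (ERR). Promoter sequences from RefSeq (GRCm38.p6, 250 bases before to 50 bases after the annotated start) were found for 66 of the 83 genes. Those without one include Cox4i1, Atp5f1, Uqcrc2, Sdhc, Uqcrq, Cox6c, Ndufs1, Uqcrb, Ndufb9, Atp5a1, Ndufa2, Atp5s, Cox6a2, Ndufa4l2, Cox4i2 and Cox8c. The letters searched on both strands were GCGCA and GCGC with any 1 base between them for NRF1, CCGGAAG for ETS, AAGATGGCG for YY1 and TCAAGGTCA for ERR. The letters AAG end the ETS motif and begin the YY1 motif, so a site can count for both. The NRF1 letters were present in 17 of the 66 promoters (25.8%), against 5.19% of the promoters of all 27025 genes with one and 11.4% of those of the 9766 protein-coding genes tested. The ETS letters were in 16 promoters (24.2%), against 9.93% of all genes and 20.01% of the tested protein-coding genes. YY1 letters were in 7 (10.6%), against 1.64% and 3.6%, and ERR letters in 2 (3.03%), against 0.466% and 0.328%. In all, 34 of the 66 promoters held at least 1 of the motifs and 32 held none. The promoters below belong to abundant subunits of each complex and to the Cox7a1 and Cox7a2 isoform pair. In complexes I, III and V they are not those of the most abundant subunits. Ndufa4, Ndufb11, Uqcr10, Uqcrfs1 and Atp5b were more abundant than the subunit printed for their complex, and their promoters held none of the motifs. Each promoter printed outside the isoform pair holds a match, so the printed set does not represent the 66. Each is printed on the strand of its gene from 5′ to 3′, and capitals mark matches on either strand.
Ndufs8, a complex I iron-sulfur subunit, chr19:3912725-3913024, minus strand: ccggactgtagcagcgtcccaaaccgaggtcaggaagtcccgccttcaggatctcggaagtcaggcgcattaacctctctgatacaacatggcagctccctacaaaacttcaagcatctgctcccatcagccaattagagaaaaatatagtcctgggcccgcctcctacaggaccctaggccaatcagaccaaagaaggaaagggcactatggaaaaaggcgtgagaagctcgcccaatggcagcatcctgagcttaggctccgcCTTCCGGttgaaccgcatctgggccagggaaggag
Sdhd, a membrane anchor of complex II, chr9:50603800-50604099, minus strand: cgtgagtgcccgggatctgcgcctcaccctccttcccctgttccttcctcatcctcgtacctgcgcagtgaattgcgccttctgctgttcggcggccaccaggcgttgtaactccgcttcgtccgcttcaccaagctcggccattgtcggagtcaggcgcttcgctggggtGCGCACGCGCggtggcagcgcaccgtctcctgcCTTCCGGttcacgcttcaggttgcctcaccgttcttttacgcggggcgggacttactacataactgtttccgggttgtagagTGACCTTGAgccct
Uqcrh, the hinge subunit of complex III, chr4:116075021-116075320, minus strand: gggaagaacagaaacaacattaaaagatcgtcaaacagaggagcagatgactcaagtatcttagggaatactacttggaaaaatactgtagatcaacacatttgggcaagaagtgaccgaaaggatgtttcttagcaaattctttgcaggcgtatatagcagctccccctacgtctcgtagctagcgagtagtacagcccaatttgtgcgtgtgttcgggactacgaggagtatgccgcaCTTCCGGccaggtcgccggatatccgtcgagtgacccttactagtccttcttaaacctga
Cox6a1, the broadly expressed 6a isoform of complex IV, chr5:115348909-115349208, minus strand: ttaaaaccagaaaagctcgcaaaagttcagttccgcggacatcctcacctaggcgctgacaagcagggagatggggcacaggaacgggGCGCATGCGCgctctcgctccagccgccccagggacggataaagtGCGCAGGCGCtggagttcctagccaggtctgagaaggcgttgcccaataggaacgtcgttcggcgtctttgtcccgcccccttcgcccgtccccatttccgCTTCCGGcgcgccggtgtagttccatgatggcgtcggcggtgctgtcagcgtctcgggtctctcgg
Atp5g3, a gene for the c subunit of complex V, chr2:73911277-73911576, minus strand: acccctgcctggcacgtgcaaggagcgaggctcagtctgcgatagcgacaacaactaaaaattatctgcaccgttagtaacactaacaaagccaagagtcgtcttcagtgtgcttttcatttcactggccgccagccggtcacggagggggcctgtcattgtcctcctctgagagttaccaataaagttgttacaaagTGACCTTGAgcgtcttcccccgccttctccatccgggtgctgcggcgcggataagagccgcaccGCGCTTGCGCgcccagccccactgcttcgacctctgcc
Cox7a1, the 7a isoform known from heart and skeletal muscle, chr7:30183921-30184220, plus strand: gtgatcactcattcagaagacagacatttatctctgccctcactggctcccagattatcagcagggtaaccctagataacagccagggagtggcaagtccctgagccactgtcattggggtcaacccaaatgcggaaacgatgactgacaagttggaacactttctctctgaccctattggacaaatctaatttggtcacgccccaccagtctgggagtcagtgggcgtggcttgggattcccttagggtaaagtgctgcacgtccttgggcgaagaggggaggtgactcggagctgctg
Cox7a2, the broadly expressed 7a isoform, chr9:79759804-79760103, minus strand: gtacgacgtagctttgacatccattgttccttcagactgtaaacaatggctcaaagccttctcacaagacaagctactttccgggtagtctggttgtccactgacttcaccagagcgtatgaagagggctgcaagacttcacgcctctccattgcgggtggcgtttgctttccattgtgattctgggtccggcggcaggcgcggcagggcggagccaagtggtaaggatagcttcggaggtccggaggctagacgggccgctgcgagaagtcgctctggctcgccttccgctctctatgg

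The Sdhd promoter held NRF1, ETS and ERR letters, which began at bases -79, -46 and 37 relative to the annotated start, counted as base 1 with no base 0. Cox6a1 held NRF1 letters at -162 and -117 and ETS letters at -16. Atp5g3 held ERR letters at -52 and NRF1 letters at 13. Ndufs8 and Uqcrh each held ETS letters alone, at 16 and -10. The Cox7a1 and Cox7a2 windows held none of the searched letters, which says only that these letters are not in these windows. A match describes the sequence and is not evidence that a factor binds there.

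The 4 cKO libraries held 15110451 to 18351748 counts and the 4 WT libraries 15982538 to 18708335. Rictor had 1.77, 2.30, 1.22 and 2.38 FPKM (fragments scaled by gene length and by library size) in cKO libraries 1 to 4, against 2.44, 2.48, 3.35 and 3.0 FPKM in WT libraries 1 to 4. All cKO values lay below all WT values, and the log2 fold change was -0.55 ± 0.20 (SE; edgeR quasi-likelihood test, unadjusted p = 0.0190, adjusted p = 0.920 over all genes). Which exons are floxed is not given in the sources used here, so transcript that lacks them can still be counted. All 7 epithelial markers, Epcam, Cdh1, Vil1 and 4 keratins, were measured and together reached 3895 to 5165 FPKM in cKO libraries and 4092 to 4488 FPKM in WT libraries. cKO library 3 stood apart by base composition: the top quartile of genes by GC content exceeded the bottom quartile by 0.73 on the log2 scale there, relative to the mean of all libraries, against -0.17 to -0.043 in the other 7 libraries.

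No subunit gene of any complex passed the test between cKO and WT. Of the 83 genes, 76 passed the filter on low counts: 35, 4, 8, 13 and 16 of complexes I to V. None of the 76 had an adjusted p of 0.05 or less in edgeR's quasi-likelihood test, where 2 of all 14701 genes did (0.0136%), and none did with DESeq2 (background 0.309%) or with limma's voom with library quality weights (0.0204%). At an unadjusted p under 0.05 the edgeR count was also 0 of 76 (background 3.90%), and in none of the 76 did the 4 cKO libraries lie all above or all below the WT libraries (background 3.21%). The log2 fold change was above 0 in 34 genes and below 0 in 42, and its median was -0.018, beside 0.0021 over all genes tested, of which 50.5% were above 0. The medians of complexes I to V were -0.0059, 0.037, -0.033, -0.018 and -0.029. With the quality weights, which were lowest for cKO library 3, the count above 0 was 6, the median was -0.12 and 12 genes had an unadjusted p under 0.05 (background 8.33%), all with negative values and a smallest adjusted p of 0.52. The count above 0 was 11 without cKO library 3 and WT library 3, and 16 without cKO library 3 alone. For these fits and the weighted fit, the share of all genes above 0 is not given here, so these counts have no background beside them.

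The precision of these estimates was finer than that of most genes. The median SE of a log2 fold change was 0.13 over the 76 subunit genes and 0.17 over all genes tested. For 70 of the 76 genes (92.1%) the 95% interval lay within 1.5-fold either way, against 54.6% of all genes tested. The exceptions were Ndufs5, Ndufa1, Ndufa12, Uqcrb, Uqcrc1 and Cox6b2. Counts assigned to the 83 genes made up 1.74 ± 0.13% of each library in cKO and 1.74 ± 0.074% in WT (SD, n = 4 each). In these bulk samples, fewer cells of a type and less RNA per cell cannot be told apart.

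**Figure D1:**
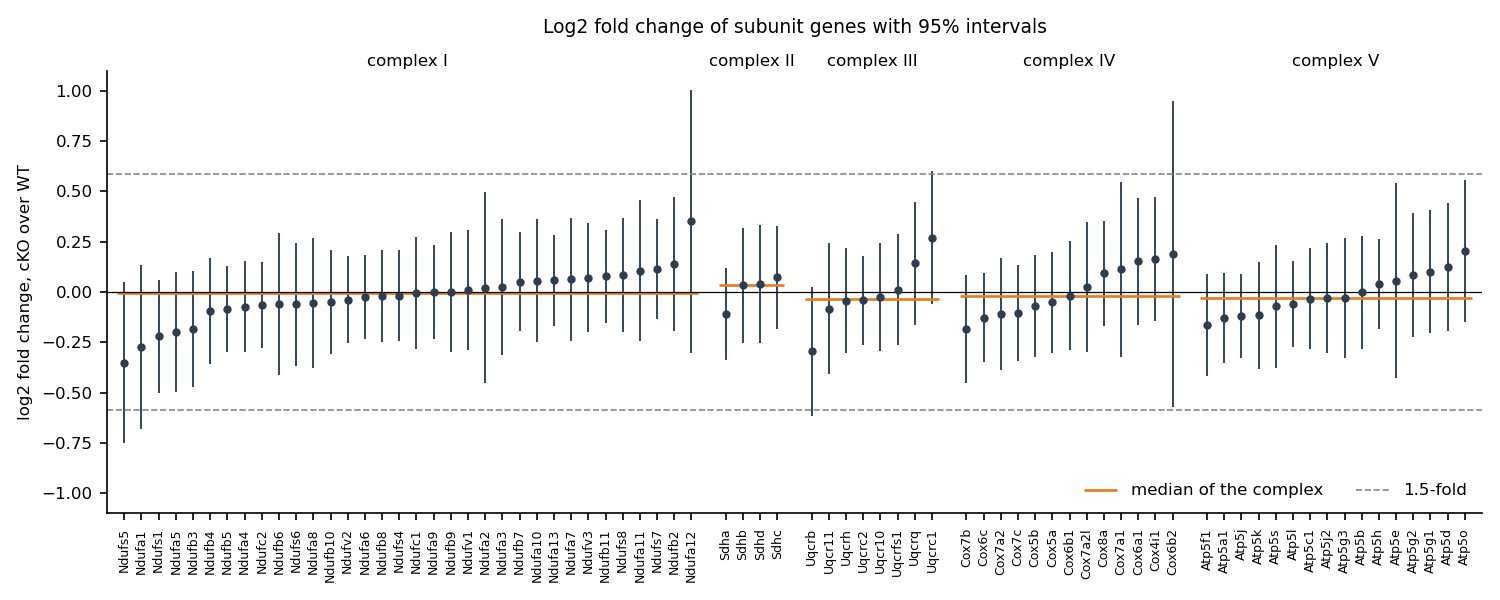
Log2 fold change of cKO over WT for 75 of the 76 tested subunit genes, by complex and sorted by value; vertical lines are 95% intervals from the edgeR fit, orange lines are the medians over all tested genes of each complex and dashed lines mark 1.5-fold. Every interval drawn includes 0, and Ndufa12 has the widest interval in complex I.

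As a group these were highly expressed genes. Mean FPKM over the 8 libraries was over 20 for 71 of the 76 genes, over 100 for 33 and over 500 for 3, Cox6a1, Cox8a and Atp5b. The median over the tested genes of a complex was 63.8 FPKM in complex I, 165 in complex II, 179 in complex III, 165 in complex IV and 100 in complex V. The 5 genes under 20 FPKM were Ndufb2, Uqcrc1, Cox6b2, Atp5s and Ndufb7, of which Ndufb7 averaged 20.2 FPKM in cKO and 19.5 FPKM in WT (log2 fold change 0.05). Whether the rows of these genes hold all of their reads was not tested.

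**Figure D2:**
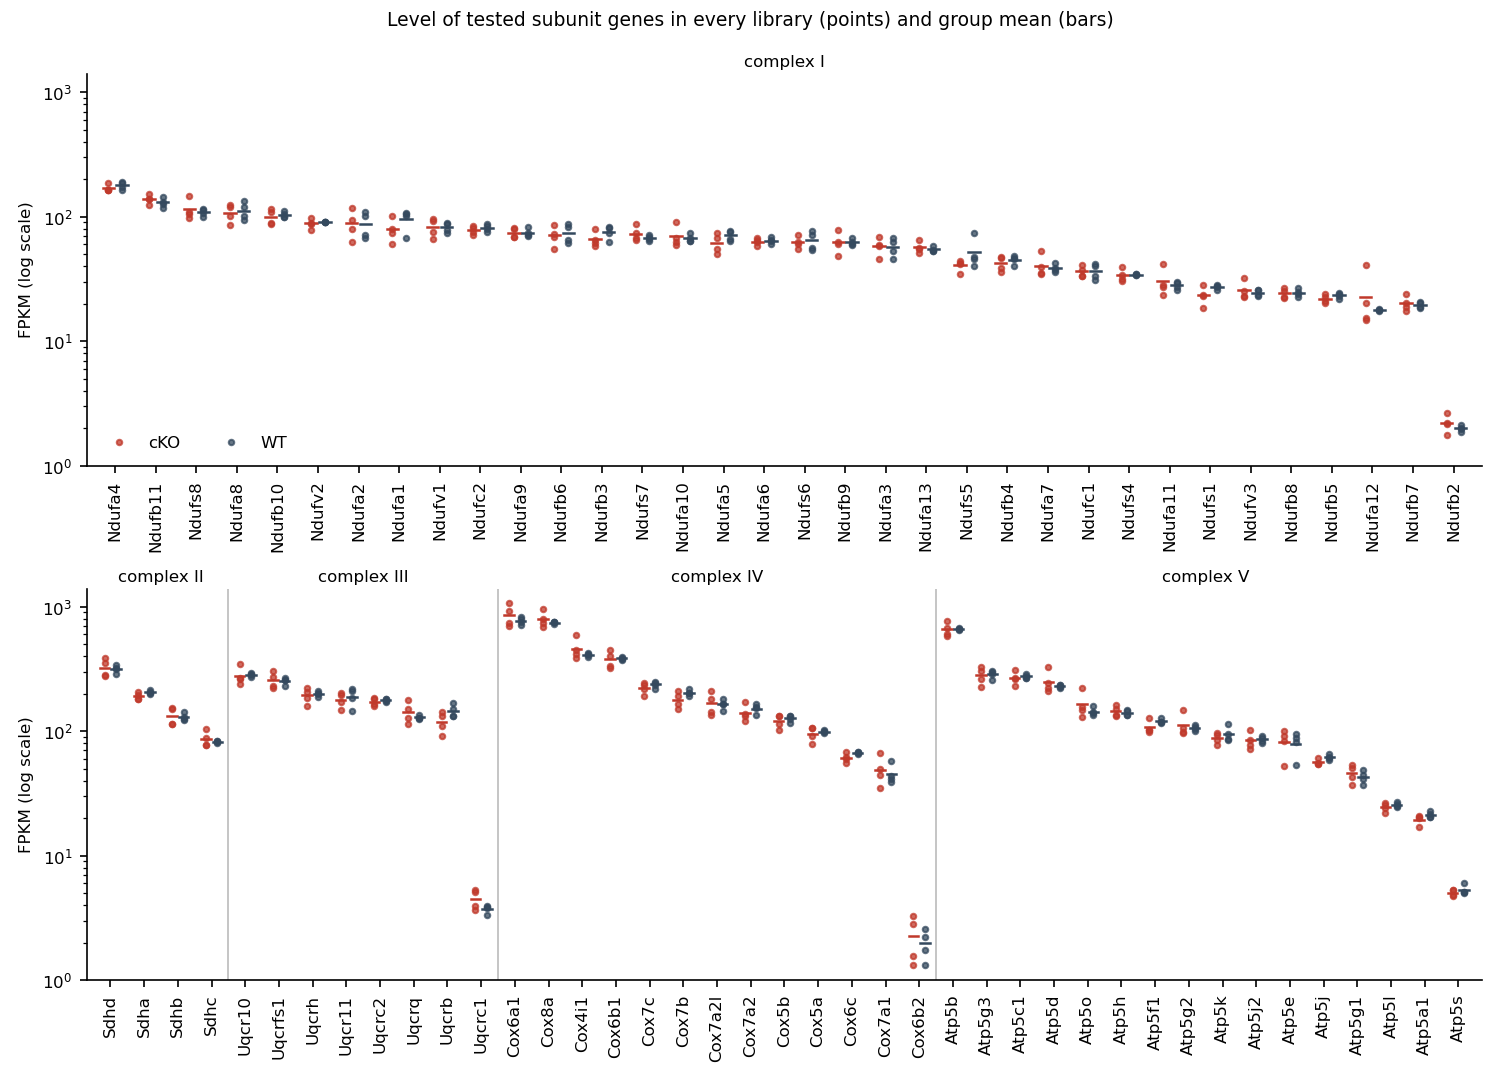
FPKM (log axis) of 75 of the 76 tested subunit genes in each library, with cKO points left of WT points and bars for group means, sorted by level within each complex. The points of both groups overlap for every gene drawn, and Ndufb2, Uqcrc1, Cox6b2 and Atp5s lie below 10 FPKM.

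In complex I the catalytic core is formed by subunits that bind NADH and carry the iron-sulfur clusters. Ndufv1, which binds FMN and NADH, averaged 82.7 ± 14 FPKM in cKO and 82.2 ± 7.42 FPKM in WT (SD, n = 4 each), a log2 fold change of 0.01. Its partner Ndufv2 averaged 88.5 FPKM in cKO and 90.9 FPKM in WT, -0.04 on the log2 scale. The iron-sulfur subunits Ndufs7 and Ndufs8, which stand in the path to ubiquinone, averaged 73.2 and 115 FPKM in cKO against 67.7 and 109 FPKM in WT, with log2 fold changes of 0.11 and 0.08. Ndufs1, the largest of the iron-sulfur subunits, averaged 23.4 ± 3.93 FPKM in cKO and 27.3 ± 0.956 FPKM in WT, a log2 fold change of -0.22 ± 0.13 (unadjusted p = 0.114).

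Most of the remaining complex I genes encode accessory subunits. Ndufa4, now regarded as a subunit of complex IV in mammals although it keeps its complex I name, had 188, 163, 163 and 163 FPKM in cKO libraries 1 to 4, against 190, 186, 165 and 173 FPKM in WT libraries 1 to 4. cKO library 1 lay among the WT values and the other 3 just below them, and the log2 fold change was -0.07 ± 0.10. Ndufb11, a membrane-arm subunit, had 139, 138, 151 and 124 FPKM in cKO libraries and 145, 132, 118 and 128 FPKM in WT libraries. The values interleaved, with a log2 fold change of 0.08 ± 0.11.

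The complex I gene with the lowest log2 fold change was Ndufs5, a small accessory subunit (chr4:123712710-123718202, minus strand), with 44.2, 34.5, 42.9 and 41.9 FPKM in cKO libraries 1 to 4, against 47.7, 45.8, 74.7 and 40.3 FPKM in WT libraries 1 to 4. WT library 3 stood above all others and WT library 4 lay inside the cKO values, so the groups overlapped. The log2 fold change was -0.35 ± 0.18 (95% interval -0.75 to 0.05, unadjusted p = 0.0796, adjusted p = 0.920 by edgeR), and without WT library 3 it was -0.13. The highest was Ndufa12 (chr10:94198955-94221443, plus strand), with 15.2, 14.8, 20.2 and 40.7 FPKM in cKO libraries 1 to 4, against 18, 17.9, 17.7 and 17.6 FPKM in WT libraries 1 to 4. cKO library 4 alone made the difference: libraries 1 and 2 were below every WT library, the log2 fold change was 0.35 ± 0.29 with all libraries (95% interval -0.30 to 1.01), and without cKO library 4 it was -0.08. The other accessory genes had log2 fold changes between -0.27 (Ndufa1, 79.0 FPKM in cKO and 95.5 FPKM in WT) and 0.14 (Ndufb2, at 2.19 FPKM in cKO and 1.99 FPKM in WT the least abundant complex I gene that was tested). Ndufs4, whose loss in mice causes a Leigh-like encephalopathy, averaged 33.9 ± 3.94 FPKM in cKO and 34.3 ± 0.469 FPKM in WT, a log2 fold change of -0.02.

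Ndufs3, a core subunit of complex I, was listed at 0 in all 8 libraries. It lies at chr2:90894634-90904827 (minus strand) in a run of 5 loci, C1qtnf4, Ndufs3, Kbtbd4, Ptpmt1 and Gm17661, that were all listed at 0. The neighbour on one side, Mtch2, had 20251 counts summed over the 8 libraries, and the neighbour on the other side, Celf1, had 4. The level of Ndufs3 in these cells is therefore not described, and the reason for the listed zeros was not tested.

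Complex II links the citric acid cycle to the electron transport chain. Sdhd, a membrane anchor, had 388, 281, 352 and 276 FPKM in cKO libraries 1 to 4, against 324, 339, 314 and 285 FPKM in WT libraries 1 to 4. cKO libraries 1 and 3 were above, and libraries 2 and 4 below, all WT libraries, with a log2 fold change of 0.04 ± 0.13. Sdha, the flavoprotein that oxidises succinate, had 205, 181, 194 and 182 FPKM in cKO libraries, against 212, 205, 200 and 204 FPKM in WT libraries. cKO library 1 lay among the WT values and the other 3 below them, with a log2 fold change of -0.11 ± 0.10, the lowest of the complex. Sdhb, the iron-sulfur subunit, had 150, 114, 153 and 114 FPKM in cKO libraries and 142, 125, 129 and 123 FPKM in WT libraries. Sdhc, the other membrane anchor, had 87.9, 77.6, 104 and 77.1 FPKM in cKO libraries and 83.4, 82.4, 79.9 and 83.7 FPKM in WT libraries. For both genes cKO libraries 1 and 3 were above every WT library and cKO libraries 2 and 4 below every one, and the log2 fold changes were 0.03 ± 0.13 for Sdhb and 0.07 ± 0.12 for Sdhc.

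In complex III, Uqcrfs1 encodes the Rieske iron-sulfur protein, and it had 305, 232, 270 and 221 FPKM in cKO libraries 1 to 4, against 270, 260, 260 and 231 FPKM in WT libraries 1 to 4. The cKO values spanned the WT values, and the log2 fold change was 0.01 ± 0.13. The small subunit Uqcr10 had 262, 241, 348 and 268 FPKM in cKO libraries and 289, 282, 271 and 296 FPKM in WT libraries. Only cKO library 3 exceeded the WT values, and the other 3 cKO libraries were below all of them (log2 fold change -0.02 ± 0.12). Uqcrh, the hinge subunit beside cytochrome c1, had 222, 185, 208 and 160 FPKM in cKO libraries and 198, 204, 209 and 188 FPKM in WT libraries, which overlapped (-0.04 ± 0.12).

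Uqcrb, a small subunit near the ubiquinone site (chr13:66900617-66905378, minus strand), had the smallest p of all 76 genes. It had 141, 109, 92.0 and 133 FPKM in cKO libraries 1 to 4, against 132, 167, 151 and 133 FPKM in WT libraries 1 to 4. cKO libraries 2 and 3 were below every WT library, and cKO libraries 1 and 4 were among them. The log2 fold change was -0.30 ± 0.15 (95% interval -0.62 to 0.03, unadjusted p = 0.0680, adjusted p = 0.920 by edgeR), and with the trends on gene length and GC content removed it was -0.14. The core subunit Uqcrc1 had the highest log2 fold change of the complex and the lowest level, with 5.26, 3.91, 5.13 and 3.67 FPKM in cKO libraries, against 3.8, 3.84, 3.32 and 3.95 FPKM in WT libraries. cKO libraries 1 and 3 were above the WT values and the other cKO libraries among them (0.27 ± 0.15, unadjusted p = 0.0988, adjusted p = 0.920 by edgeR), and with the quality weights the value was 0.08. Its core partner Uqcrc2 averaged 172 ± 11.9 FPKM in cKO and 177 ± 4.82 FPKM in WT, a log2 fold change of -0.04. The reason for the gap between these partners was not tested. The level and fold change of Uqcrc1 describe its listed counts, which may not hold all reads of the gene. Of the small subunits, Uqcrq averaged 142 FPKM in cKO and 129 FPKM in WT (0.14), and Uqcr11 averaged 179 FPKM in cKO and 189 FPKM in WT (-0.08).

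Complex IV held the most abundant subunit genes. Cox6a1 had 919, 705, 1069 and 734 FPKM in cKO libraries 1 to 4, against 819, 760, 792 and 716 FPKM in WT libraries 1 to 4. cKO libraries 1 and 3 lay above all WT libraries, cKO library 2 below all of them and cKO library 4 within them, with a log2 fold change of 0.15 ± 0.14. Cox8a, the broadly expressed subunit 8 isoform, had 793, 686, 952 and 741 FPKM in cKO libraries and 751, 752, 720 and 750 FPKM in WT libraries. Cox4i1, the main isoform of the regulatory subunit 4, had 448, 384, 590 and 420 FPKM in cKO libraries and 428, 393, 417 and 409 FPKM in WT libraries. For these genes too cKO libraries 1 and 3 were the highest of all and cKO library 2 the lowest, and the log2 fold changes were 0.09 ± 0.12 for Cox8a and 0.16 ± 0.14 for Cox4i1.

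The lowest log2 fold change in complex IV was that of Cox7b, a small X-linked subunit, with 210, 165, 150 and 190 FPKM in cKO libraries 1 to 4, against 191, 202, 218 and 202 FPKM in WT libraries 1 to 4. cKO libraries 2, 3 and 4 were below the WT libraries and cKO library 1 was among them (-0.18 ± 0.12). Cox6b2, known from testis, had the highest, with 1.32, 3.30, 1.56 and 2.82 FPKM in cKO libraries and 2.22, 1.33, 2.59 and 1.75 FPKM in WT libraries. At this low level the values interleaved, and the 95% interval of the log2 fold change of 0.19 ± 0.35 ran from -0.57 to 0.95. Cox5a and Cox5b, which surround the catalytic core, averaged 95.7 and 120 FPKM in cKO against 99.2 and 127 FPKM in WT, with log2 fold changes of -0.05 and -0.07. Cox6b1, which faces cytochrome c, averaged 379 FPKM in cKO and 384 FPKM in WT (-0.02). The small subunits Cox6c and Cox7c averaged 61.4 and 221 FPKM in cKO against 67.1 and 238 FPKM in WT (-0.13 and -0.10). Cox7a2l, which is linked to respiratory supercomplexes, averaged 167 FPKM in cKO and 164 FPKM in WT (0.03).

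In complex V, Atp5b encodes the catalytic beta subunit and had 671, 586, 773 and 606 FPKM in cKO libraries 1 to 4, against 675, 662, 657 and 647 FPKM in WT libraries 1 to 4. The WT libraries lay within a narrow band, cKO library 3 was above it and cKO libraries 2 and 4 below it, so that the means were 659 ± 84.4 FPKM in cKO and 660 ± 11.7 FPKM in WT (SD, n = 4 each; log2 fold change -0.0021 ± 0.13). Atp5c1, the gamma subunit of the rotating shaft, had 270, 232, 311 and 264 FPKM in cKO libraries and 268, 268, 289 and 277 FPKM in WT libraries. The cKO values again spanned the WT values (-0.03 ± 0.11). Atp5g3, a gene for the c subunit of the membrane ring, had 330, 262, 303 and 228 FPKM in cKO libraries and 301, 302, 287 and 256 FPKM in WT libraries (-0.03 ± 0.14), with overlap.

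Atp5o, the peripheral stalk subunit known as OSCP, had the highest log2 fold change of the complex, with 158, 129, 224 and 148 FPKM in cKO libraries 1 to 4, against 142, 134, 139 and 158 FPKM in WT libraries 1 to 4. cKO library 3 was the highest and cKO library 2 the lowest of all (0.20 ± 0.16), and without cKO library 3 the log2 fold change was 0.02. By GENCODE M21, 47.9% of the Atp5o exon bases are shared with other genes. Atp5f1, the b subunit of the stalk, had the lowest, with 128, 101, 98.0 and 102 FPKM in cKO libraries and 117, 118, 127 and 119 FPKM in WT libraries. cKO library 1 was the highest of all and the other cKO libraries were below every WT library (-0.16 ± 0.12), and with the trends on gene length and GC content removed the value was 0.03. The stalk subunits Atp5h and Atp5j averaged 145 and 56.6 FPKM in cKO against 141 and 61.5 FPKM in WT (0.04 and -0.12). The shaft subunits Atp5d and Atp5e averaged 250 and 82.2 FPKM in cKO against 230 and 79.1 FPKM in WT (0.12 and 0.06).

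The alpha subunit gene Atp5a1, whose product pairs with Atp5b in the catalytic head, averaged 19.5 ± 1.73 FPKM in cKO and 21.3 ± 1.16 FPKM in WT (SD, n = 4 each), far below Atp5b, with a log2 fold change of -0.13 ± 0.10. The deposited data also list 338 loci without an Ensembl identifier. Whether the row of Atp5a1 holds all reads of the gene was not tested, so its level is that of the row. The factor B gene Atp5s averaged 5.05 FPKM in cKO and 5.31 FPKM in WT (-0.07). The membrane subunits Atp5k, Atp5l and Atp5j2 averaged 87.7, 24.5 and 84.4 FPKM in cKO against 95.2, 25.6 and 86.2 FPKM in WT, with log2 fold changes of -0.12, -0.06 and -0.03. Exon bases shared with another gene occur in 29 of the 83 genes and exceed 20% in Atp5o, Ndufb6 (39.0%) and Ndufa13 (30.0%), and how the authors' counting assigned such reads, or reads that match pseudogenes, is not given in the sources used here.

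Several subunits exist as a broadly expressed gene and a gene known from muscle, lung, testis or other tissues. Across 10 such pairs, 5 had both genes above 0.1 FPKM in at least 1 group, and in none of the 5 did the isoform share pass the test (exact two-sided permutation tests over 4 and 4 libraries, smallest attainable p = 0.0286, all p = 0.6 after Benjamini-Hochberg adjustment over the 5 pairs). A single pair at the smallest attainable p would reach only 0.143 after adjustment, so the adjusted test could not call 1 pair alone. Cox7a1 took 28.2, 24.9, 26.6 and 22.4% of the summed FPKM of Cox7a1 and Cox7a2 in cKO libraries 1 to 4, against 20.1, 21.8, 27.2 and 22.7% in WT libraries 1 to 4. The groups overlapped, at 25.5 ± 2.47% in cKO and 23.0 ± 3.05% in WT (SD, n = 4 each; exact permutation p = 0.286). Its partner Cox7a2 had 172, 134, 136 and 120 FPKM in cKO libraries and 164, 156, 153 and 134 FPKM in WT libraries, and Cox7a1 had 67.4, 44.2, 49.3 and 34.8 FPKM in cKO libraries and 41.4, 43.4, 57.3 and 39.3 FPKM in WT libraries. cKO library 1 was the highest for both genes (log2 fold change -0.11 ± 0.13 for Cox7a2 and 0.11 ± 0.20 for Cox7a1). The 7 markers of smooth and striated muscle summed to 0.230 to 0.475 FPKM in cKO libraries and 0.264 to 0.676 FPKM in WT libraries, none of them at 0 in all libraries and 1 of 7 passing the filter, so Cox7a1 stood far above them.

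The c subunit of complex V is made from genes that give the same mature protein. Atp5g2 took 28.7 ± 4.59% of the summed FPKM of Atp5g2 and Atp5g3 in cKO and 27.1 ± 2.37% in WT (SD, n = 4 each; exact permutation p = 0.6). Atp5g1 took 14.1 ± 0.651% of the pair with Atp5g3 in cKO and 13.02 ± 1.17% in WT (exact permutation p = 0.171). Atp5g2 averaged 113 ± 24.2 FPKM in cKO and 106 ± 5.15 FPKM in WT, and Atp5g1 averaged 45.9 ± 7.5 FPKM in cKO and 42.9 ± 4.93 FPKM in WT, so the order Atp5g3, Atp5g2, Atp5g1 was the same in both groups. Cox6b2 took 0.628 ± 0.342% of its pair with Cox6b1 in cKO and 0.512 ± 0.142% in WT (exact permutation p = 0.543). Cox6a2, the heart and muscle isoform, took 0.0950 ± 0.0142% of its pair with Cox6a1 in cKO and 0.0787 ± 0.0344% in WT (exact permutation p = 0.429).

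**Figure D3:**
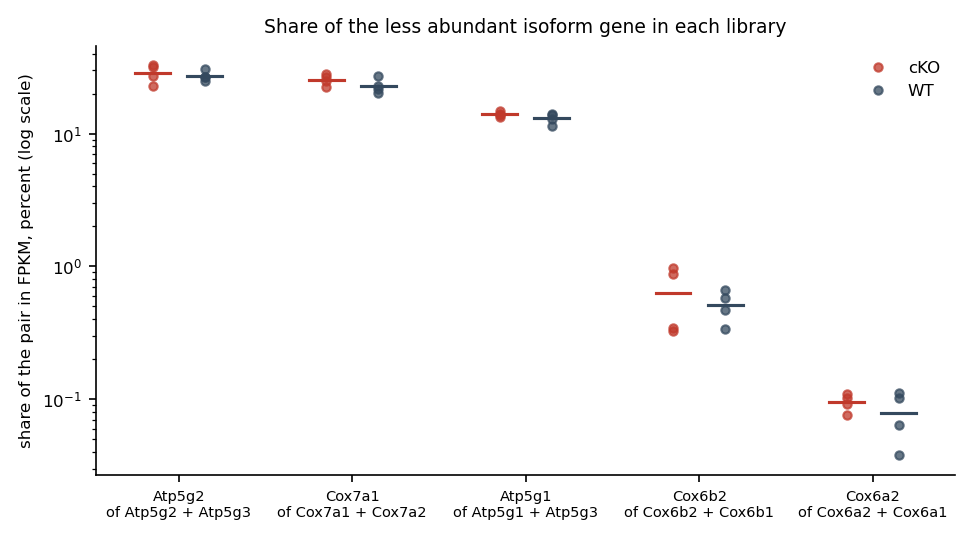
Share of the first gene in the summed FPKM of each isoform pair (log axis, percent), 1 point per library, cKO left of WT, with bars for group means. The points of both groups overlap in all 5 pairs, from Atp5g2 at 28.7% in cKO and 27.1% in WT to Cox6a2 under 0.2% in both.

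Of the 7 genes that failed the filter, Ndufs3 is described above, and the other 6 are isoforms or relatives known from other tissues or conditions. Cox6a2 had 0.945, 0.769, 0.983 and 0.562 FPKM in cKO libraries 1 to 4, against 0.308, 0.483, 0.808 and 0.800 FPKM in WT libraries 1 to 4, which overlapped. Ndufa4l2, a hypoxia-induced relative of Ndufa4, had 0.267 FPKM in cKO library 1 and 0.050 FPKM in WT library 2 and was listed at 0 in the other 6 libraries. Cox4i2, the subunit 4 isoform known from lung and hypoxia, had 0.148 FPKM in cKO library 1 and 0.0695 FPKM in WT library 2 and was likewise listed at 0 in the others. Cox7b2 and Cox8c, known from testis, and Cox8b, known from muscle and brown fat, were listed at 0 in every library. The 4 fat cell markers summed to 0.012 to 0.16 FPKM in cKO libraries and 0.094 to 0.18 FPKM in WT libraries, from Cidea in 7 libraries and from Plin1 in cKO library 3, with Adipoq and Ucp1 at 0 in all libraries. The 3 male germ cell markers summed to at most 0.15 FPKM in cKO libraries and 0.092 FPKM in WT libraries, with Tnp1 at 0 in all.

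Most of the subunit genes varied together across the 8 libraries. The score used here is the mean over the 76 genes of log2 CPM (counts scaled by library size, prior count 2) minus the mean of the 8 libraries. It was 0.095, -0.11, 0.11 and -0.14 in cKO libraries 1 to 4, against 0.070, 0.031, -0.0010 and -0.060 in WT libraries 1 to 4. cKO libraries 1 and 3 were the highest and cKO libraries 2 and 4 the lowest of all, so the spread was 0.13 in cKO and 0.055 in WT (SD, n = 4 each) while the means lay close together. In complex V the score was 0.067, -0.098, 0.17 and -0.17 in cKO libraries and 0.029, 0.017, 0.014 and -0.025 in WT libraries, an SD of 0.16 in cKO and 0.023 in WT. Whether the groups differ in spread was not tested. With the trends on gene length and GC content removed, the score of all 76 genes was 0.065, -0.12, 0.13 and -0.12 in cKO libraries and 0.087, 0.041, -0.018 and -0.065 in WT libraries. The split of the cKO libraries remained, although WT library 1 then exceeded cKO library 1.

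Across the 8 libraries, the median Pearson correlation of a gene with the score of the other 75 was 0.66, 55 of the 76 correlations were above 0.5 and 7 were below 0. These correlations describe libraries that share depth and composition. The share of other genes with correlations as high is not given here, so such covariation cannot be called particular to the subunits. The highest were those of Ndufb10 (0.97) and Ndufv1 (0.95), and the lowest those of Cox6b2 (-0.75) and Ndufa12 (-0.49). Outside the name rule, the 3 protein-coding genes of 12375 whose log2 CPM correlated most with the score were Unc119b (0.97), Efhd2 (0.97) and Tff3 (0.97), over the same 8 libraries. Tff3, a trefoil peptide of goblet cells, had 1538, 1206, 1719 and 1190 FPKM in cKO libraries 1 to 4, against 1513, 1390, 1372 and 1279 FPKM in WT libraries 1 to 4, with cKO libraries 1 and 3 again the highest. The 5 goblet and Paneth cell markers, of which Tff3 is 1, did not share this order. Their score was -0.23, 0.060, -0.047 and 0.083 in cKO libraries, opposite in sign to the subunit score in each. In WT libraries it was 0.22, 0.023, 0.066 and -0.18, with the sign of the subunit score in libraries 1, 2 and 4. The subunit score of WT library 3, -0.0010, was too near 0 for its sign to be compared.

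Marker levels also differed among the libraries of each group. The same score over the 7 epithelial markers was 0.044, -0.12, 0.22 and -0.082 in cKO libraries 1 to 4, against -0.092, -0.052, 0.17 and -0.087 in WT libraries 1 to 4. Over the 5 crypt and proliferation markers it was -0.27, 0.22, -0.18 and 0.21 in cKO libraries, opposite in sign to the subunit score in each. In WT libraries it was 0.011, -0.055, -0.19 and 0.25, opposite in sign in libraries 2 and 4 but not in library 1. The subunit score of WT library 3, -0.0010, was too near 0 for a comparison of sign. With the length and GC trends removed, the crypt score of cKO library 3 was 0.018, so the sign was no longer opposite there. Over the 9 enterocyte markers the score was 0.36, -0.15, 0.018 and -0.15 in cKO libraries, with the signs of the subunit score. In WT libraries it was -0.50, -0.23, 0.96 and -0.30, opposite in sign to the subunit score in libraries 1 and 2 but not in library 4. WT library 3 was by far the highest. Over the 6 T cell markers, all of which passed the filter and none of which was at 0, it was 0.55, -0.54, 1.21 and -0.41 in cKO libraries and -0.58, -0.97, 0.10 and 0.65 in WT libraries, and their summed level was 42.7 to 214 FPKM in cKO and 30.4 to 128 FPKM in WT. Of the 4 macrophage markers, 2 passed the filter, Csf1r and Cd68. Their score was 0.83, 0.12, 0.73 and 0.084 in cKO libraries and -0.26, -0.82, -0.16 and -0.53 in WT libraries, so here the groups did not overlap. The summed level of the 4 was low, 2.38 to 3.20 FPKM in cKO and 1.41 to 2.02 FPKM in WT, and none was called. The part of cell composition in the subunit score was not tested.

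**Figure D4:**
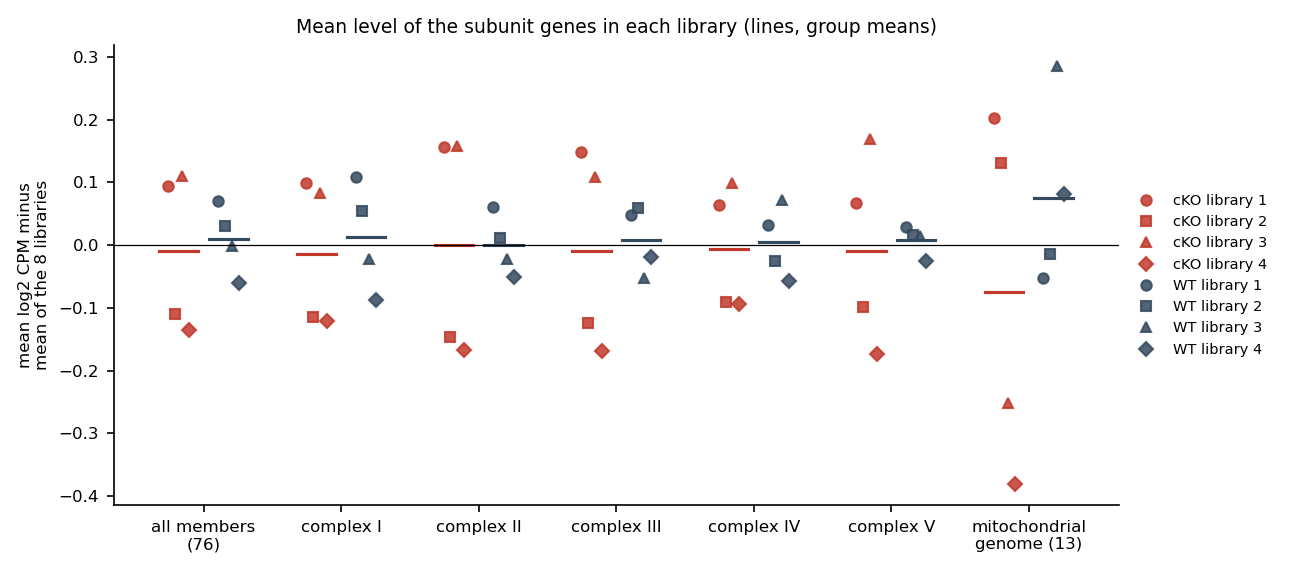
Score (mean log2 CPM minus the mean of the 8 libraries) of all 76 tested subunit genes, of each complex and of the 13 protein genes of the mitochondrial genome, 1 point per library, cKO left of WT, with lines for group means. For all 76 genes cKO libraries 1 and 3 (0.095 and 0.11) lie above and cKO libraries 2 and 4 (-0.11 and -0.14) below all WT libraries, and the mitochondrial genome order is different.

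The 13 protein genes of the mitochondrial genome, which supply the remaining subunits of complexes I, III, IV and V, did not follow the nuclear-encoded genes by score. The score of the 13 genes was 0.20, 0.13, -0.25 and -0.38 in cKO libraries 1 to 4, against -0.052, -0.015, 0.28 and 0.081 in WT libraries 1 to 4. By this score cKO libraries 1 and 2 were high and 3 and 4 low, and WT library 3 was the highest of all. The score weighs genes equally, so mt-Atp8, at 0.94 to 5.15 FPKM in cKO libraries, counts as much as mt-Co1. So does mt-Nd4l, which had 473 FPKM in WT library 2 and 54.1 to 64.6 FPKM in the other WT libraries. This single value raises the score of WT library 2. In cKO libraries 1 to 4 mt-Nd4l had 71.0, 59.9, 37.1 and 34.3 FPKM, where mt-Nd1 had 6311, 5849, 5829 and 5817 FPKM. In cKO libraries 1 to 4, mt-Co1 had 19703, 17051, 21233 and 19320 FPKM, highest in library 3. There mt-Cytb had 11294, 10025, 9102 and 9731 FPKM, lowest in library 3. The mitochondrial share of counts was 5.96 to 6.24% in cKO libraries, without this split, and 5.28 to 7.71% in WT libraries. With the trends removed, the score of cKO library 3 was 0.32 in place of -0.25. None of the 13 passed the test, 1 had a log2 fold change above 0 and 12 below, and the median was -0.078, which was 0.11 without the libraries numbered 3 and 0.14 with the trends removed. The smallest p was that of mt-Nd3, a complex I subunit, at 198 ± 33.0 FPKM in cKO and 159 ± 20.5 FPKM in WT (log2 fold change 0.32 ± 0.14, unadjusted p = 0.0478, adjusted p = 0.920 by edgeR). On average mt-Nd3, mt-Nd4l, mt-Co2, mt-Co3, mt-Atp6 and mt-Atp8 were listed far below the rest of the mitochondrial genes. The lowest of that rest, mt-Nd6, averaged 1547 FPKM in cKO and 1674 FPKM in WT. Whether the rows of the low genes hold all of their reads was not tested, which limits what the value of mt-Nd3 describes.

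No gene of the related lists was called either. Of the 6 subunits and carriers outside the name rule, 3 were above and 3 below 0, with a median of -0.084, and the smallest p was that of Etfdh, which feeds electrons from fatty acid oxidation to ubiquinone (18.3 ± 1.1 FPKM in cKO and 21.2 ± 1.69 FPKM in WT, -0.21 ± 0.10). Ndufab1, the acyl carrier subunit of complex I, averaged 17.1 FPKM in cKO and 16.6 FPKM in WT, and Cyc1, the haem subunit of complex III, 231 FPKM in cKO and 221 FPKM in WT. Of the assembly factors, 4 of 14 for complex I, 0 of 4 for complex II, 5 of 6 for complex III, 7 of 17 tested for complex IV and 1 of 3 for complex V were above 0. The median of the complex III factors was 0.11 with all libraries and -0.022 without the libraries numbered 3, and Lyrm7, which helps to insert the Rieske protein, had the smallest p (2.18 ± 0.732 FPKM in cKO and 1.59 ± 0.422 FPKM in WT, 0.46 ± 0.27). The complex IV factors Sco2 and Pet117 were listed at 0.

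Among the 12 regulators of mitochondrial biogenesis, 5 were above 0 and 7 below, with a median of -0.048. Pprc1, a coactivator related to PGC-1alpha, had the smallest p (9.64 ± 1.46 FPKM in cKO and 7.97 ± 1.16 FPKM in WT, 0.27 ± 0.14, unadjusted p = 0.0722, adjusted p = 0.920 by edgeR). Of the factors whose motifs were searched above, Nrf1, Gabpa, Yy1 and Esrra averaged 4.20, 11.6, 21.4 and 97.3 FPKM in cKO against 3.78, 13.4, 22.7 and 95.7 FPKM in WT. Their log2 fold changes were 0.15 ± 0.10, -0.20 ± 0.18, -0.08 ± 0.11 and 0.03 ± 0.15. The 13 citric acid cycle genes had a median of -0.064 with 4 above 0, and Dld, a shared subunit of the 2-oxoacid dehydrogenases, had the smallest p (56.6 ± 17.5 FPKM in cKO and 68.7 ± 2.72 FPKM in WT, -0.28 ± 0.20). The 7 ATP and metabolite carriers had a median of -0.037 with 1 above 0, and Vdac1, an outer membrane channel, had the smallest p (156 ± 10.2 FPKM in cKO and 168 ± 9.53 FPKM in WT, -0.10 ± 0.10).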

How the data were processed

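RNA of intestinal epithelial cells was sequenced in 8 libraries, 4 cKO and 4 WT, grouped by the labels. Per the series' design text, reads were handled with Hisat2 and then Stringtie. No source used here gives the tool versions, the genome build, the counting program or its use of strand. The authors deposited whole-number read counts per gene and FPKM for the same 54139 genes. Coordinates are those deposited: all 83 subunit genes are in GENCODE M21 (GRCm38), 73 with identical coordinates, so that build is named. Depth was 15110451 to 18708335 counts, and no libraries were duplicates by a chi-square test (lowest chi-square per degree of freedom 10.7). FPKM served for levels, as mean ± SD.

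Counts were fitted across all genes with edgeR 4.0.16 in R 4.3.3 (robust quasi-likelihood test, TMM factors, default filter on low counts, 14701 genes tested, genotype as the single term, Benjamini-Hochberg adjustment over all genes, threshold 0.05). Fold changes are cKO over WT, and an SE is the log2 fold change divided by the square root of F. The script was tested on simulated data. Alternatives used RLE or upper-quartile factors, other filters, DESeq2 1.42.0, limma 3.58.1 (voom with quality weights, and log2(FPKM + pseudocount)), offsets that remove a spline on gene length and GC content, a replicate block, and libraries left out. Named genes are Rictor, the 3 most abundant subunits and those with the highest and lowest fold change in each complex, isoform pairs, subunits that failed the filter, the smallest p of each related list, and the 3 genes that correlate most with the score. The values of 1 complex I subunit are not reported here, although it counts in all totals. Every other subunit may be named once, with its level and log2 fold change. Values of Uqcrc2, Ndufs1 and a few other subunits beyond level and fold change, and those of the motif factors, Ndufab1 and Cyc1, were chosen after their values were seen. The subunits and lists were chosen with earlier results of these data known.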

Additional observations from a re-analysis of the deposited data

Results flagged for a closer look

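In 10 of the 182 groups of 4 FPKM values examined, 1 value was far outside the rest, where chance gives about 1 in 20. The measure, given in brackets, is the gap to the nearest value divided by the range of the group, set against Dixon's 95% critical value.

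Subunits that were tested account for 6 of these. Ndufa4 was at 188 FPKM in cKO library 1 and 163 in each of the others (0.982). Atp5f1, the b subunit of complex V, was at 128 FPKM in cKO library 1 and 98.0 to 102 in the others (0.866), and Atp5a1 was at 16.9 FPKM in cKO library 4 and 20.1 to 20.7 in the others (0.833). Among WT libraries, Ndufa1 was at 68.0 FPKM in library 4 and 101 to 108 in the others (0.831), Cox8a was at 720 FPKM in library 3 and 750 to 752 in the others (0.926), and Atp5s was at 6.05 FPKM in library 4 and 4.99 to 5.13 in the others (0.867).

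The other 4 come from genes listed at 0 in all but 1 library of a group, which gives a value of 1 by construction. They are Ndufa4l2 (0.267 FPKM in cKO library 1 and 0.050 in WT library 2) and Cox4i2 (0.148 FPKM in cKO library 1 and 0.0695 in WT library 2).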

How the results depend on the processing

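No subunit gene was called under any of the 20 alternatives, whereas counts of direction and of small unadjusted p moved. The number of all genes called, 2, was 10 with no filter, 4 without the libraries numbered 3, 41 with DESeq2, 1 on log2(FPKM + 0.1), 0 on log2(FPKM + 1), 0 with a mean FPKM of at least 0.5, and 0 to 3 with 1 library left out. Subunits at an unadjusted p under 0.05, 0 as reported, numbered 2 with no filter, 12 with the quality weights (background 8.33%), 1 with the length and GC trends removed, and 0 to 7 with 1 library left out (7 without cKO library 1, all below 0; 2 without WT library 4; 1 without cKO library 4). For the settings without a background in brackets, the share of all genes at that p is not given here, so those counts cannot be set against it. Subunits above 0, 34, numbered 11 without the libraries numbered 3, 6 with the quality weights and 16 (without cKO library 3) to 47 with 1 library left out. The share of all genes above 0 is not given here for these alternatives. Subunits with no overlap between groups, 0, numbered 2 without the libraries numbered 3 (background 10.5%), 2 with the trends removed (2.68%) and 0 to 9 with 1 library left out (9 without cKO library 1, all lower in cKO, background 8.3%; 2 without cKO library 3, 5.41%; 1 each without cKO library 2, 5.72%, or WT library 4, 5.93%).

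The median of -0.018 was -0.12 with the quality weights (complexes I to V -0.13, -0.12, -0.13, -0.13 and -0.11) and -0.068 to 0.043 with 1 library left out. By complex the left-out ranges were -0.069 to 0.044 (I), -0.045 to 0.11 (II), -0.080 to 0.026 (III), -0.10 to 0.060 (IV) and -0.077 to 0.043 (V). Differences in isoform share ranged from 0.0026 to 0.027 (Cox6a2), 0.000097 to 0.22 (Cox6b2), 1.60 to 3.98 (Cox7a1), 0.52 to 1.35 (Atp5g1) and 0.17 to 3.48 (Atp5g2) percentage points. Of 580 values of 29 named subunits under the alternatives, 61 had another sign than the reported value and none passed the adjusted threshold. The cause of these changes was not tested.

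Libraries of both groups share numbers, and no label says what a number marks. The deviations of same-numbered libraries correlated at -0.11, 0.11, 0.15 and 0.14, over 0.1 in 3 of 4 pairs, and 4 of the 8 libraries correlated best with their own number, so pairing was not established. A fit with the replicate number as a block called 0 genes, against 2 without it, and 0 subunits. For Cox6b2, which had 25 to 63 counts per library, even a 1.5-fold change was not resolvable with 4 libraries per group.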
